A study of Mus musculus with 16 samples.

Results

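The Notch pathway genes described here are 6 genes known as transcriptional targets of Notch signalling (Hes1, Hes5, Hey1, Hey2, Heyl and Nrarp), the DNA-binding effector Rbpj, and the receptor gene Notch1. They were chosen by name, because SPEN is a corepressor of RBPJ, and make up 8 of the 55421 genes counted in the series. All 8 were found by matching Ensembl identifiers to GENCODE M21 symbols. A filter on low counts left 18150 genes, among them 6 of the 8, since Heyl and Nrarp had too few reads. The question was how these genes behave when Spen is deleted.

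RNA was sequenced from wild-type (Wt) and Spen-/- female mouse embryonic stem cells (ESCs), which are 129/Sv:Cast/Ei F1 hybrids. Both genotypes carry a doxycycline-responsive promoter at the endogenous Xist gene of the Cast X chromosome, and in Spen-/- cells the whole Spen open reading frame was removed with CRISPR/Cas9 and a puromycin cassette. The 8 conditions, each with 2 biological replicates, are Wt and Spen-/- at day 0 without doxycycline (no dox), at day 0 with 2 µg/mL doxycycline for the preceding 4 days (dox), at day 3 of differentiation without dox, and at day 7 with dox. Dox-treated cells were sorted for a dsRed reporter and untreated cells were not, so dox and sorting cannot be told apart. Undifferentiated cells grew on male feeder fibroblasts, which were depleted before differentiation by plating. The labels do not say whether replicates are separate clones, so p-values measure the spread between these libraries only.

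Notch receptors are cleaved when a ligand on a neighbouring cell binds them, and the released intracellular domain enters the nucleus. There it joins RBPJ on DNA with Mastermind-like coactivators, and target genes such as those of the Hes and Hey families are transcribed. Without the intracellular domain RBPJ can bind corepressors, among them SPEN (also called SHARP or MINT), which brings in NCoR and histone deacetylases. Mouse ESCs are known to express Notch receptors, and the pathway is best known for its part in lineage decisions after pluripotency is left.

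Between 7571566 and 14822867 reads per library fell on genes. Levels are given as CPM, read counts scaled to a common library size with TMM factors, and levels compared between genes as RPKM, which divides CPM by the annotated exon length in kilobases. Spen had 16.2 to 43.5 CPM in the 8 Wt libraries and 0.129 to 5.45 CPM in the 8 Spen-/- libraries, with no overlap between genotypes. The day 7 Spen-/- libraries stood apart from the rest. They had the fewest genes detected (15324 and 14969, against 16952 to 23458 elsewhere) and the lowest correlation between replicates (0.771, against 0.861 to 0.972). Every result at day 7 rests on them.

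On the RPKM scale Hes1 had the highest level of the 8 genes in all 8 conditions, with condition means of 11.4 to 54.8. Rbpj followed at 1.96 to 5.61 and was exceeded by Hey1 in untreated Spen-/- cells at day 0 (Hey1 6.56 RPKM) and in Wt cells at day 7 (Hey1 2.38 RPKM). That order depends on the exon length used, 12750 bases for Rbpj and 3265 for Hey1. In CPM Rbpj was above Hey1 in both conditions (68.6 against 21.4 and 24.9 against 7.76). Notch1 had 0.260 to 1.54 RPKM. Hes5 did not exceed 0.810 RPKM in any condition, and Hey2, Heyl and Nrarp stayed below it. Hes1, Rbpj and Notch1 had reads in all 16 libraries and Hey1 in 14, and the other 4 genes in 1 to 8. In bulk RNA, fewer cells expressing a gene and less RNA per cell cannot be told apart.

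For Hes1, Hey1, Notch1 and Rbpj the largest genotype differences were seen at day 7. Hes1 was 4.51-fold lower in Spen-/- cells, and Hey1 went from 7.76 CPM in Wt cells to no read in Spen-/- cells. Both passed the test, so 2 of the 6 tested genes were called, both lower, beside 7.11% of all 18150 genes (edgeR quasi-likelihood test, Benjamini-Hochberg adjusted p under 0.05). Libraries of the 2 genotypes did not overlap at day 7 for any of the 6, and 52.8% of all tested genes were separated in this way. Hes1, Hes5, Hey1, Hey2 and Notch1 were lower in Spen-/- cells and Rbpj was higher.

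In the other 3 conditions no member passed the test between genotypes. A gene that was not called may still differ. In simulated data the day 3 test recovered 13% of 4-fold changes, over genes drawn at random from all tested genes. Recovery was not counted for single members or for the day 0 tests. At day 0 without dox none of the 6 was called, beside 0.0% of all genes, with 1 member at an unadjusted p under 0.05 and none called by DESeq2. At day 0 with dox none was called beside 0.0826% of all genes, with 1 at an unadjusted p under 0.05 and 1 called by DESeq2, which was Hes1 in both cases. At day 3 none was called beside 0.0%, with none at an unadjusted p under 0.05 and none by DESeq2. Over all genes, 4.56%, 10.2% and 3.22% had an unadjusted p under 0.05 in these 3 conditions, in that order. DESeq2 called 38, 446 and 10 genes there. Averaged over the 4 conditions, Hes1 alone was called, beside 4.91% of all genes. With 2 libraries a group an exact permutation test cannot reach 0.05 in a single condition, so the only such test here spans the 4 conditions.

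Hes1 encodes a basic helix-loop-helix (bHLH) repressor that is known to oscillate in ESCs and is the best known direct target of Notch. The gene lies at chr16:30064384-30067796 (GRCm38, plus strand). In Wt cells it had 41.6 and 41.3 CPM at day 0 without dox, 104 and 45.6 CPM at day 0 with dox, 98.2 and 124 CPM at day 3, and 133 and 89.7 CPM at day 7. In Spen-/- cells it had 87.1 and 84.4 CPM at day 0 without dox, 28.5 and 18.1 CPM at day 0 with dox, 108 and 81.2 CPM at day 3, and 20.1 and 29.4 CPM at day 7. Wt cells were thus lowest in the untreated day 0 state, whereas Spen-/- cells were lowest in both dox-treated states. In the order of condition means, only Wt day 0 with dox against Wt day 0 without dox, and the latter against Spen-/- day 7, were neighbours whose libraries did not overlap.

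**Figure D1:**
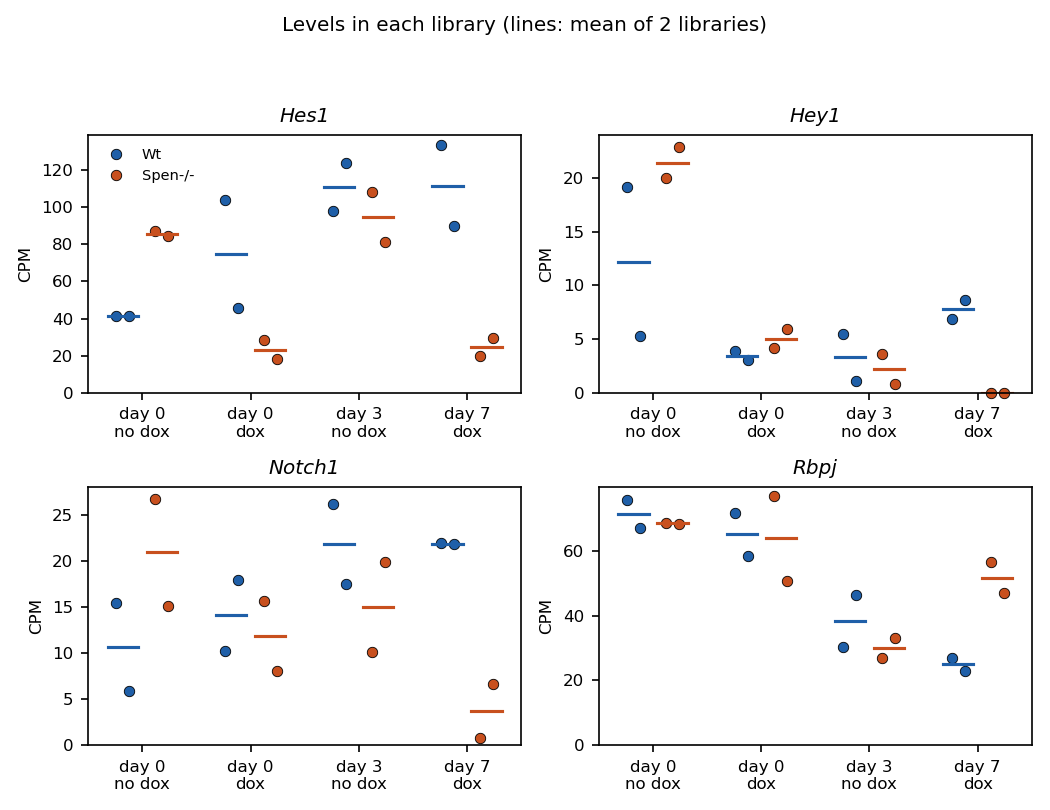
CPM (y axis) of Hes1, Hey1, Notch1 and Rbpj in each library of the 4 culture conditions (x axis), Wt in blue and Spen-/- in orange, with a line at the mean of 2 libraries. At day 7 the Spen-/- points lie below the Wt points for Hes1, Hey1 and Notch1 and above them for Rbpj.

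At day 7 the genotype difference of Hes1 was -2.17 on the log2 scale (SE 0.41, edgeR adjusted p = 0.00734), lower in both Spen-/- libraries. Without Wt replicate 1 it was -1.90 and missed the threshold (adjusted p = 0.0631), and a fit of the 4 day 7 libraries alone, which called no gene at all, gave an adjusted p of 0.0677 for Hes1 and for Hey1. At day 0 with dox the difference was -1.69 (SE 0.40, edgeR adjusted p = 0.197), and the libraries did not overlap, as for 41.2% of all tested genes. That value rests on 1 library: without Wt replicate 1 it was -0.97. At day 0 without dox the direction was opposite, 1.05 (SE 0.40, edgeR adjusted p = 0.984), with both Spen-/- libraries above both Wt libraries (26.7% of all tested genes were separated there). At day 3 the difference was -0.23 (95% interval -1.08 to 0.62), and the libraries overlapped.

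Over the 4 conditions Hes1 averaged -0.76 on the log2 scale (SE 0.20, edgeR adjusted p = 0.0484). This call was lost when day 7 was left out (-0.29, adjusted p = 0.67) and was kept in only 3 of 16 fits with 1 library left out. The exact permutation test, with genotype labels exchanged within conditions in every possible way, gave a mean difference of -0.73 in log2(CPM + 0.5) and a two-sided p of 0.108.

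The fitted dox effects on Hes1 at day 0 had opposite signs in the 2 genotypes. The effect was 0.85 in Wt cells (SE 0.39, edgeR adjusted p = 0.702) and -1.88 in Spen-/- cells (SE 0.41, edgeR adjusted p = 0.164), with no overlap of treated and untreated libraries in either genotype. The share of all genes separated in this way was not counted for dox or for changes with time. The Wt effect rests on 1 library, since it was 0.13 without treated replicate 1, and treated replicate 2 at 45.6 CPM lay just above the untreated 41.6 CPM. The difference between these effects was -2.74 (95% interval -3.97 to -1.50, edgeR adjusted p = 0.42). DESeq2 called it with an adjusted p of 0.00373, and so did edgeR without the filter on low counts (adjusted p = 0.00237). The other 3 settings and all 8 fits with 1 library left out did not call it (adjusted p of 0.211 to 1.0 in the latter, and -2.02 without treated Wt replicate 1). Other cell markers moved with dox at day 0. The sum of 7 fibroblast markers was 127 and 123 CPM without dox and 16.6 and 24.2 CPM with it in Spen-/- cells, and 140 and 45.9 against 51.4 and 12.8 CPM in Wt cells. The sum of 5 formative epiblast markers was 496 and 405 CPM without dox and 1272 and 986 CPM with it in Wt cells, where 2 were called higher, and 372 and 334 against 794 and 547 CPM in Spen-/- cells. Their part in the Hes1 values was not tested. For the dox effect itself none of the 6 genes was called in Wt cells, beside 0.149% of all genes, with none at an unadjusted p under 0.05 and none by DESeq2. None was called in Spen-/- cells beside 0.0716%, with Hes1 at an unadjusted p under 0.05 and called by DESeq2. Over all genes, 7.15% in Wt and 8.09% in Spen-/- cells had an unadjusted p under 0.05 for the dox effect. No member was called for the difference in dox effect, beside 0.0% of all genes.

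During differentiation Hes1 moved from 41.4 ± 0.264 CPM at day 0 to 111 ± 18.3 CPM at day 3 in untreated Wt cells (SD, n = 2). The change was 1.42 on the log2 scale (SE 0.40, edgeR adjusted p = 0.116), and DESeq2 called it (adjusted p = 0.0121). Untreated Spen-/- cells started at 85.7 ± 1.92 CPM and had 94.6 ± 19.0 CPM at day 3, a change of 0.14 (95% interval -0.71 to 0.99). From day 0 to day 7 with dox the change was 0.57 in Wt cells (95% interval -0.28 to 1.43) and 0.09 in Spen-/- cells (95% interval -0.78 to 0.96).

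**Figure D2:**
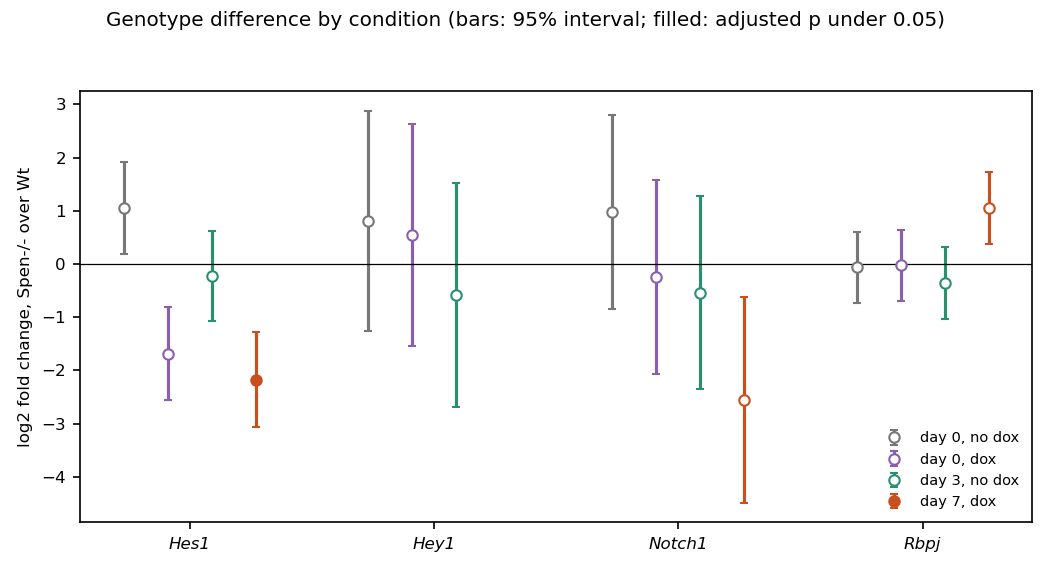
log2 fold change of Spen-/- over Wt (y axis) for Hes1, Hey1, Notch1 and Rbpj (x axis) in each condition, with 95% intervals from edgeR. Filled points passed an adjusted p of 0.05, which only Hes1 at day 7 did, and Hey1 at day 7 is left out because Spen-/- cells had no read.

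Hey1 encodes a bHLH repressor of the Hairy-related family, known for its part in vessel and heart development, and lies at chr3:8663359-8667256 (minus strand). At day 7 it had 82 and 95 reads in the Wt libraries and 0 reads in both Spen-/- libraries (6.90 and 8.61 CPM against 0). Set against the level that 3 reads over both Spen-/- libraries would give, 0.183 CPM, Hey1 was 42.4-fold lower in Spen-/- cells (edgeR adjusted p = 0.00635). This floor allows for counting error only and not for the spread between libraries. Absence of reads was not rare in these libraries. Of the 1565 tested genes that averaged 5 to 10 CPM in Wt cells at day 7, 14.2% had no read in both Spen-/- libraries, whereas 2.49% of the 1690 genes at that level in Spen-/- cells had none in both Wt libraries. At day 3 the first share was 0.234%.

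Earlier, Hey1 was highest in untreated day 0 cells, and no genotype difference passed the test. At day 0 without dox it had 19.1 and 5.29 CPM in Wt and 19.96 and 22.9 CPM in Spen-/- cells, a log2 difference of 0.81 (95% interval -1.26 to 2.88). At day 0 with dox it had 3.87 and 3.05 CPM in Wt and 4.14 and 5.92 CPM in Spen-/- cells, a difference of 0.54 (95% interval -1.55 to 2.62). At day 3 it had 5.51 and 1.13 CPM in Wt and 3.58 and 0.854 CPM in Spen-/- cells, a difference of -0.58 (95% interval -2.69 to 1.52). The intervals are wide enough to hold changes of 2-fold in either direction.

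Fibroblast markers are a measured companion of the Hey1 values at day 0. The summed level of 7 fibroblast markers was 140, 127 and 123 CPM in the 3 libraries with Hey1 above 19 CPM, which are Wt replicate 1 and both Spen-/- replicates at day 0 without dox. It was 45.9 CPM in Wt replicate 2, where Hey1 had 5.29 CPM, and 12.8 to 102 CPM in the other 12 libraries. In the sorted day 0 libraries 3 to 6 of the 7 fibroblast genes had reads, and in those 3 libraries 6 or 7 did. Transcripts of 4 Y-linked genes, which the female cells lack and the male feeders carry, summed to 3.62 to 18.1 CPM at day 0 without dox and to at most 0.533 CPM at days 3 and 7. In the 3 libraries with Hey1 above 19 CPM that sum was 8.5, 3.62 and 18.1 CPM, in the same order. In Wt replicate 2 at day 0 without dox it was 15.9 CPM, so it did not rank these libraries as Hey1 did. The sorted day 0 libraries had Y-linked sums of 0.130 to 5.78 CPM. The part of feeder RNA in the day 0 values of Hey1 was not tested. At day 7 the fibroblast sum was 83.8 and 69.9 CPM in Wt and 102 and 46.9 CPM in Spen-/- cells, values that overlap. Its part in the day 7 values of Hey1 was not tested either.

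**Figure D3:**
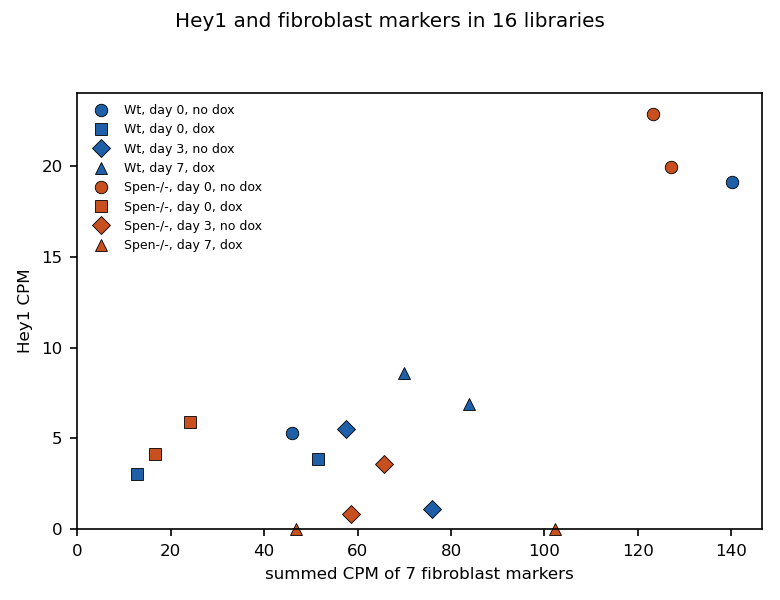
Hey1 CPM (y axis) against the summed CPM of 7 fibroblast markers (x axis) in the 16 libraries, coloured by genotype and shaped by condition. The 3 libraries with Hey1 above 19 CPM are those with the highest fibroblast sums, and the day 7 Spen-/- libraries lie at 0 on the Hey1 axis.

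From day 0 to day 7 with dox, Hey1 went from 4.14 and 5.92 CPM to no read in Spen-/- cells. Against the same floor it was 27.5-fold lower (edgeR adjusted p = 0.00914). It was the only one of the 6 genes called in that comparison, beside 8.33% of all genes. In Wt cells both day 7 libraries lay above both day 0 libraries, a change of 1.16 (95% interval -0.94 to 3.26). The difference between genotypes passed the test (edgeR adjusted p = 0.026), as 1 of 6 members beside 2.01% of all genes, and was lost when any of 6 of the 8 libraries in it was left out. From day 0 to day 3 without dox the change of Hey1 was -1.88 in Wt (SE 0.97, edgeR adjusted p = 0.438) and -3.27 in Spen-/- cells (SE 1.03, edgeR adjusted p = 0.189), with the fibroblast sums at day 3 at 57.6 to 75.9 CPM.

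The other 4 targets were near the limit of detection. Hes5, a bHLH repressor known as a Notch target in neural progenitors, lies at chr4:154960923-154962371 (plus strand). Hey2, a relative of Hey1, lies at chr10:30832359-30842801 (minus strand). Heyl, the third Hey gene, lies at chr4:123233556-123249875 and Nrarp, whose product limits Notch signalling by feedback, at chr2:25180758-25183339 (both plus strand).

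RBPJ binds DNA at the letters GTGGGAA or its reverse complement TTCCCAC, and promoter windows were searched for them to show what the sequence next to these genes holds. RefSeq (GRCm38.p6) windows of 250 bases before to 50 after a start site were present for 5 of the 8 genes. Only those of Hes5 and Hey2 held the 7 letters, on either strand, as did 6.38% of 32851 windows. The shorter TGGGAA, which GTGGGAA contains, or TTCCCA was found in the windows of Hes5, Hey2 and Rbpj and in 25.6% of all windows, and not in those of Nrarp and Notch1. The upstream part of both windows is printed 5′ to 3′ on the gene's strand with the 7 letters in capitals. For Hes5 it is chr4:154960673-154960922, and for Hey2 chr10:30842802-30843033, which stops 18 bases short of the RefSeq start because the GENCODE gene begins there. Counted from the start site, the matches begin at positions -226 and -83 in Hes5, and the printed one at -207 in Hey2. A match of letters is a description and not a measured binding site.
Hes5: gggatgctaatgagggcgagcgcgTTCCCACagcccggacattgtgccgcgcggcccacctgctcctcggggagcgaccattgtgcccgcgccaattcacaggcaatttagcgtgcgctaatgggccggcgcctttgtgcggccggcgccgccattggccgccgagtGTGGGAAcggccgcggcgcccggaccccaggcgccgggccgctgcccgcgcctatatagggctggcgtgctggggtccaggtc
Hey2: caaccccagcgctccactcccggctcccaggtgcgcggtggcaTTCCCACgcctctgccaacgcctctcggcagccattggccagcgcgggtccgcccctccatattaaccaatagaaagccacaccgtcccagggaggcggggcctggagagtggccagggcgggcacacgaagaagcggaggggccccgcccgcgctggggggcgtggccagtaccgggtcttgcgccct

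Both genes had few reads in every condition. Hes5 had 14 and 0 reads in Wt at day 0 without dox, 16 and 4 with dox, 17 and 8 at day 3, and 8 and 8 at day 7. Among Spen-/- libraries it had 0 and 13 reads at day 3 and none in the other 6 libraries. Hes5 was thus seen in 7 of 8 Wt libraries and 1 of 8 Spen-/- libraries, at no more than 25 reads in a condition. Over the 4 conditions its mean difference in log2(CPM + 0.5) was -1.03 (two-sided exact permutation p = 0.00926, smallest possible 0.00154). That p was the lowest of 8 single-gene tests and is not adjusted, and the gene did not pass the test across all genes (edgeR adjusted p = 0.0977). Spen-/- libraries detected 14969 to 19820 genes of any kind, and Wt libraries 18005 to 23458. The part of this difference in detection in the Hes5 counts was not tested.

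Hey2 had reads in 6 libraries only. It had 5 reads in 1 Wt library at day 0 without dox, 5 in 1 with dox, 9 and 28 at day 7, and 38 and 1 in Spen-/- cells at day 3. No Spen-/- library at day 0 or day 7 and no Wt library at day 3 had a read, so the order of the genotypes changed between days 3 and 7. Nrarp had 30 reads in all, of which 6 and 3 were in Wt and none in Spen-/- cells at day 7. Heyl had 9 reads, all in Wt replicate 1 at day 0 with dox, the deepest library. A count of 0 in both libraries of a condition allows up to 0.1198 to 0.189 CPM (3 reads, counting error only).

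**Figure D4:**
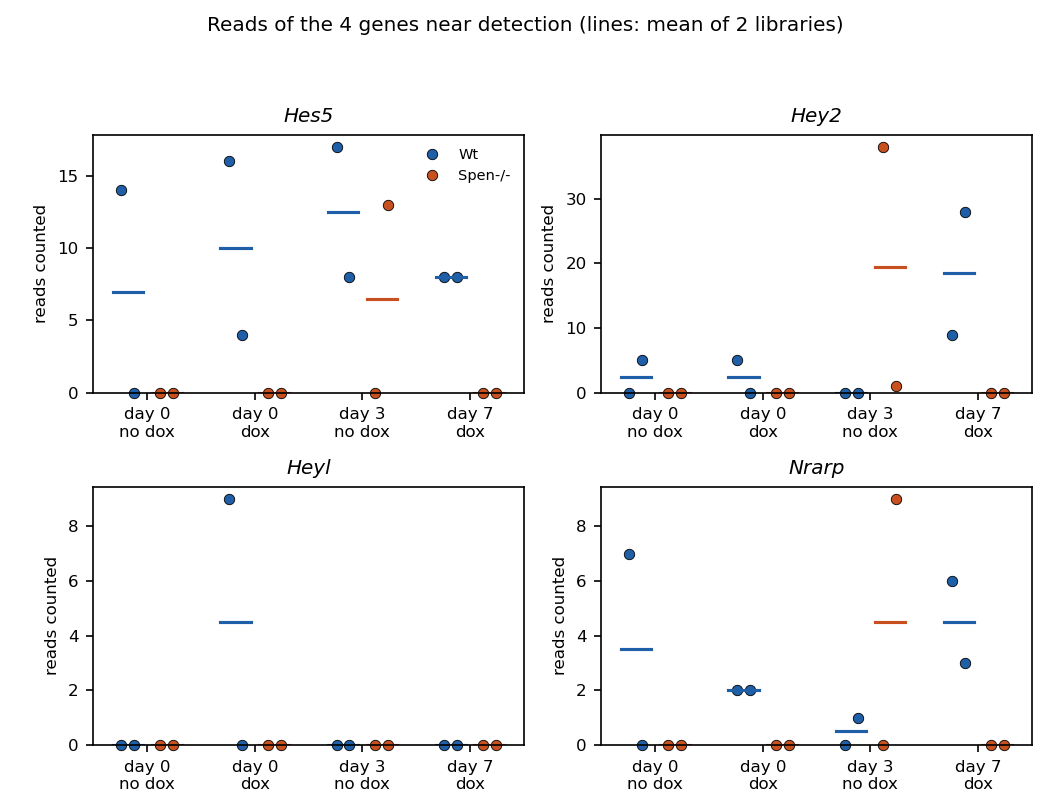
Reads counted (y axis) for Hes5, Hey2, Heyl and Nrarp in each library of the 4 culture conditions (x axis), Wt in blue and Spen-/- in orange, with a line at the mean of 2 libraries. No library exceeds 38 reads, and at day 7 all 4 genes have 0 reads in both Spen-/- libraries.

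Rbpj encodes the DNA-binding protein that all 4 mouse Notch receptors act through, and lies at chr5:53466152-53657362 (plus strand). In Wt cells it had 75.7 and 67.3 CPM at day 0 without dox, 71.9 and 58.4 CPM at day 0 with dox, 30.5 and 46.4 CPM at day 3, and 26.9 and 22.9 CPM at day 7. In Spen-/- cells it had 68.7 and 68.4 CPM at day 0 without dox, 77.2 and 50.7 CPM at day 0 with dox, 26.9 and 33.1 CPM at day 3, and 56.6 and 47.1 CPM at day 7. The 4 day 0 conditions overlapped with each other and lay above both day 3 conditions. Only at day 7 did the genotypes part.

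In Wt cells Rbpj fell 2.61-fold from day 0 to day 7 with dox, by 1.39 on the log2 scale (SE 0.31, edgeR adjusted p = 0.027). It was the only member called there, beside 4.57% of all genes. The call was lost when any 1 of the 4 libraries was left out (adjusted p of 0.0573 to 0.273), with both day 7 libraries below both day 0 libraries. The same change in Spen-/- cells was -0.30 (95% interval -0.97 to 0.37). The difference between these changes was 1.08 (SE 0.44, edgeR adjusted p = 0.293) and did not pass the test.

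At day 7 Rbpj was 2.08-fold higher in Spen-/- than in Wt cells, a log2 difference of 1.05 (SE 0.31, edgeR adjusted p = 0.0654). The libraries did not overlap, and DESeq2 called the gene (adjusted p = 0.00888). At day 0 the difference was -0.06 without dox (95% interval -0.73 to 0.61) and -0.03 with dox (95% interval -0.70 to 0.64), and at day 3 it was -0.36 (95% interval -1.03 to 0.32). No bound of these intervals lies below -1.03 or above 0.64.

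From day 0 to day 3 without dox Rbpj changed by -0.90 in Wt cells (SE 0.31, edgeR adjusted p = 0.213) and by -1.19 in Spen-/- cells (SE 0.31, edgeR adjusted p = 0.104). In both genotypes each day 3 library lay below each day 0 library. None of the 6 genes passed the test in Wt cells, beside 1.38% of all genes, with 2 at an unadjusted p under 0.05 and 1 called by DESeq2. None passed in Spen-/- cells, beside 1.23%, with 2 at an unadjusted p under 0.05 and 2 called by DESeq2, which were Hey1 and Rbpj. The genotype difference in this change called none, beside 0.0% of all genes, with 2 at an unadjusted p under 0.05 and none by DESeq2. Over all genes, an unadjusted p under 0.05 was reached by 13.4% in Wt cells, 13.1% in Spen-/- cells and 3.43% for the difference. DESeq2 called 1153 genes in Wt and 1063 in Spen-/- cells over this interval.

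Rbpj had enough allele-specific reads, 59 to 212 per condition, to give its Cast share. The share was 0.538 to 0.594 in the 4 day 0 conditions, 0.670 and 0.695 at day 3, 0.479 in Wt cells at day 7 (Wilson 95% interval 0.369 to 0.592) and 0.639 in Spen-/- cells at day 7 (0.545 to 0.723). The day 7 intervals overlap, and they cover counting error only. Both alleles were read in every condition. The other members had at most 161 allele-specific reads over all 16 libraries.

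Notch1 encodes the receptor and lies at chr2:26457903-26516663 (minus strand), where it overlaps the genes Gm13568 and 0610009E02Rik on the other strand and Mir6996. In Wt cells it had 15.4 and 5.82 CPM at day 0 without dox, 10.2 and 17.96 CPM at day 0 with dox, 26.1 and 17.5 CPM at day 3, and 21.9 and 21.8 CPM at day 7. In Spen-/- cells it had 26.7 and 15.1 CPM at day 0 without dox, 15.7 and 8.04 CPM at day 0 with dox, 10.1 and 19.8 CPM at day 3, and 0.771 and 6.63 CPM at day 7. Replicates differed widely. Every neighbouring pair in the order of condition means had overlapping libraries, down to Spen-/- day 7, which was last.

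At day 7 Notch1 was 5.91-fold lower in Spen-/- cells, a log2 difference of -2.55 (SE 0.89, edgeR adjusted p = 0.109), with no overlap of libraries. It did not pass the test, and DESeq2 called it (adjusted p = 0.0182). Without Spen-/- replicate 2, the higher of the pair, the difference was -4.79 (adjusted p = 0.0139), and without replicate 1 it was -1.74. In the other conditions the differences were 0.98 (95% interval -0.86 to 2.81) at day 0 without dox, -0.25 (95% interval -2.07 to 1.57) with dox and -0.54 (95% interval -2.36 to 1.28) at day 3. From day 0 to day 7 with dox Notch1 changed by 0.64 in Wt cells (95% interval -1.18 to 2.45) and by -1.67 in Spen-/- cells (95% interval -3.56 to 0.22).

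Cell state differed between the genotypes at day 7 in other genes too. Of 9 pluripotency markers 5 were higher and 1 lower in Spen-/- cells, and their summed level was 885 and 1057 CPM against 318 and 452 CPM in Wt cells. The sum of 8 mesoderm and cardiac markers was 232.9 and 248.9 CPM in Wt and 11.4 and 5.70 CPM in Spen-/- cells. Most of that was T (Brachyury), a primitive streak gene, which averaged 202 CPM in Wt cells and had no read in Spen-/- cells. Of 5 formative epiblast markers 1 was lower, and of 6 endothelial markers 1 was higher, which was Pecam1, a gene ESCs also express. No gene of the neural, endoderm, fibroblast or Y-linked lists was called, although the sum of 7 endoderm markers was 118.7 and 112.6 CPM in Wt and 18.5 and 40.9 CPM in Spen-/- cells, without overlap. The part of these cell state differences in the day 7 values of Hes1, Hey1, Notch1 and Rbpj was not tested.

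The genes around these members were read from 7 lists with 65 genes, of which 62 passed the filter. At day 7, 4 of the 62 differed between genotypes, 1 higher and 3 lower in Spen-/- cells (6.45%, beside 7.11% of all genes). The median log2 difference of the 62 was -0.72, and -0.71 with genes unread in 1 genotype set at their bound and the 1 unread in both left out, while that of all tested genes was -0.14. The 62 were not matched for level with all tested genes, and the medians were not tested. By list the medians with bounds were -1.76 for 5 ligands, -1.09 for 3 receptors, -0.69 for 14 processing and glycosylation genes, -0.75 for 10 endocytosis and turnover genes, -0.84 for 9 coactivators, -0.42 for 16 corepressors and -0.49 for 4 related repressors.

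The called ligand was Dll1, which had 35.7 and 23.4 CPM in Wt and no read in Spen-/- cells at day 7. Against the floor used for Hey1 it was 161-fold lower (edgeR adjusted p = 0.0156). Of genes at 20 to 40 CPM in Wt cells, 2.33% were likewise unread in Spen-/- cells. Ep300, a histone acetyltransferase of the coactivator complex, had 55.5 and 36.4 CPM in Wt and 7.33 and 4.07 CPM in Spen-/- cells (log2 difference -3.01, edgeR adjusted p = 0.0155). Hdac3, the deacetylase that works with NCoR, had 105 and 97.4 CPM in Wt and 33.3 and 47.7 CPM in Spen-/- cells (-1.32, edgeR adjusted p = 0.029). Dtx1, a Deltex ubiquitin ligase, went the other way, with 6.31 and 7.07 CPM in Wt and 52.7 and 17.4 CPM in Spen-/- cells (2.39, edgeR adjusted p = 0.0368).

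**Figure D5:**
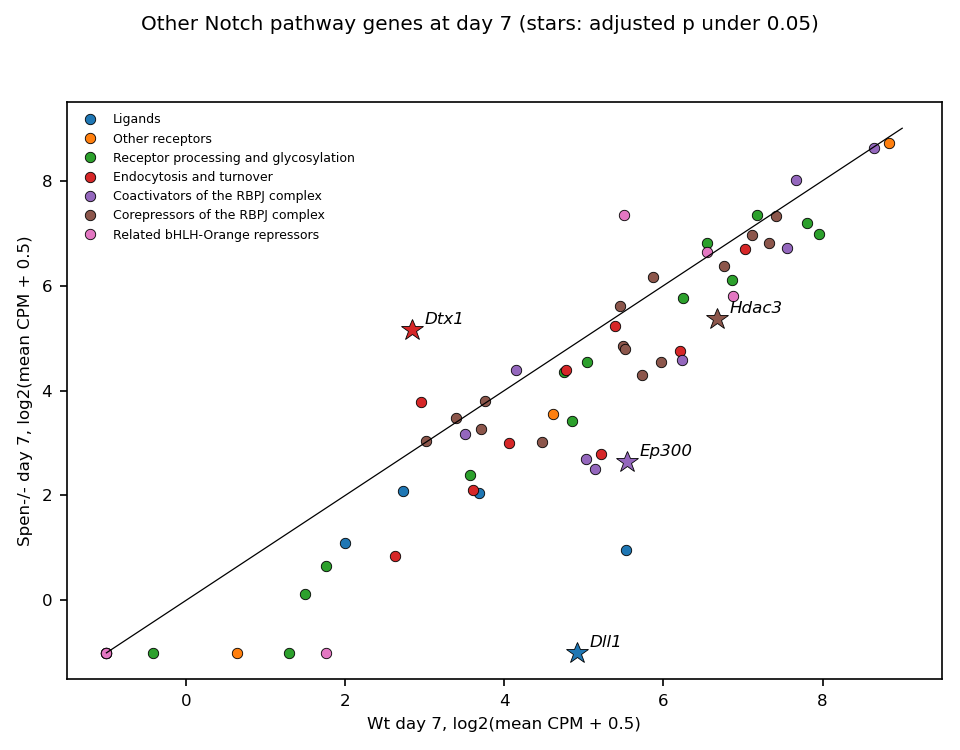
Mean level at day 7 of 65 other Notch pathway genes in Spen-/- cells (y axis) against Wt cells (x axis), both as log2(mean CPM + 0.5), coloured by list, with the line of equal levels. Stars mark the 4 genes that passed an adjusted p of 0.05, of which Dtx1 lies above the line and Dll1, Ep300 and Hdac3 below it.

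In the other genotype comparisons few pathway genes passed. None of the 62 did in the 3 conditions at days 0 and 3. Over the mean of 4 conditions 2 did (3.23%, beside 4.91% of all genes), both lower in Spen-/- cells: Bhlhe40, a repressor related to the Hes family (log2 difference -0.91, edgeR adjusted p = 0.0169), and Tle3, a Groucho corepressor (-0.81, edgeR adjusted p = 0.044). No pathway gene passed for any genotype difference in a change with time or dox.

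During differentiation, receptor and processing genes were among those called. In Wt cells 6 of the 62 passed from day 0 to day 7 with dox, 4 higher and 2 lower (9.68%, beside 4.57% of all genes). Notch2, another receptor, rose from 52.5 and 122 CPM to 434 and 481 CPM (2.39, edgeR adjusted p = 0.0345). The proteases that cut Notch, Adam10 (2.07, edgeR adjusted p = 0.0152) and Furin (2.56, edgeR adjusted p = 0.00617), also rose. In Spen-/- cells neither passed, although Adam10 went from 75.9 and 54.7 to 148 and 174 CPM. Furin there went from 33.3 and 20.3 to 85.9 and 50.8 CPM. The ligand Jag2 fell (-2.25, edgeR adjusted p = 0.0277), and so did Mfng, a Fringe glycosyltransferase, to 1 library with reads at 0.505 CPM (edgeR adjusted p = 0.0288). The other called gene was the histone demethylase gene Kdm5a, named after its value was seen since it falls outside the 5 largest changes.

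Over the same interval 5 of the 62 passed in Spen-/- cells, all lower (8.06%, beside 8.33% of all genes, a share near the background). They were Jag2 (-2.46, edgeR adjusted p = 0.0142), Ep300 (-2.28, edgeR adjusted p = 0.0474), Hdac2 (-1.92, edgeR adjusted p = 0.0255), and Dll1 and Mfng, which had no read at day 7. Notch2 went from 147 and 123 CPM at day 0 to 401 and 446 CPM at day 7 in these cells, without passing. Wt cells had 434 and 481 CPM of Notch2 at day 7. Notch1 had its lowest mean in Spen-/- cells at day 7. From day 0 to day 3 without dox Notch3, a further receptor, rose in Wt cells from 9.82 and 6.74 CPM to 64.0 and 61.6 CPM (2.92, edgeR adjusted p = 0.0434). In Spen-/- cells Notch3 went from 5.37 and 14.6 to 35.3 and 55.1 CPM without passing. Bhlhe41, a repressor related to Bhlhe40, fell over that interval in Spen-/- cells (-2.90, edgeR adjusted p = 0.0436). In Wt cells Bhlhe41 went from 234 and 616 to 64.0 and 81.2 CPM without passing. With dox at day 0 Bhlhe41 fell in Wt cells (-4.05, edgeR adjusted p = 0.0394). No pathway gene passed for dox in Spen-/- cells, where Bhlhe41 had 309 and 630 CPM without dox and 50.5 and 38.7 CPM with it.

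The genes whose levels ran most like those of the members over the 16 libraries were found among 9223 genes with at least 10 CPM on average. They share libraries, depth and conditions with the members, so the values are descriptions. For Hes1 they were Tpbg (Pearson r 0.86, Spearman rho 0.735), Arrb1 (0.84 and 0.821) and Man2c1 (0.84 and 0.827). For Rbpj they were Ankrd10 (0.92 and 0.944), Fam25c (0.91 and 0.885) and Smpdl3b (0.91 and 0.812). For Notch1 they included Rnf126 (0.92 and 0.727) and Mogs (0.91 and 0.821).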

How the data were processed

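Total counts of the 16 libraries were analysed for 8 Notch pathway genes. The authors made Smart-seq2 libraries, sequenced 50 bp single-end reads, aligned them with HISAT2 2.2.1 to mm10 masked at 129/Sv and Cast/Ei variants, split alleles with SNPsplit and counted with HTSeq 0.12.4 on Ensembl genes. Sorting used SAMtools 1.10. The deposited values are raw counts per gene with separate columns for each allele and for reads of neither, which were summed here. The strand mode of the counting is not given in the sources used here, so reads of Notch1, Hes5, Nrarp and Rbpj may not be separable from the genes that overlap them. Reads on no gene, 31.6% to 45.4% of a library, stayed out of library sizes and tests.

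Genes were filtered with filterByExpr (minimum count 10, minimum total 15), given TMM factors, and the quasi-likelihood test of edgeR 4.0.16 (R 4.3.3) was applied in 1 fit of all 16 libraries with a term per condition. Benjamini-Hochberg adjustment ran over 18150 genes in each of 14 comparisons, with a threshold of 0.05. Intervals are 95%. The scripts were tested on simulated data with 200 genes changed in all 4 Spen-/- conditions. The genotype test at day 3 recovered 0% of 2-fold, 13% of 4-fold and 28% of 16-fold changes. Over the mean of 4 conditions it recovered 26%, 35% and 64%. A group without reads was given a floor of 3 reads over its libraries, which allows for counting error only. RPKM used the union of GENCODE M21 exons. Other values came from Python 3.11.15 with scipy 1.17.1, and figures from matplotlib 3.10.9.

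The members and all lists (7 of pathway genes, 8 of cell type markers) were chosen with earlier results of these data known. Named genes are the 8 members, Spen, up to 5 pathway genes per comparison with the largest change among those called, and the 3 genes most correlated with each member above 10 CPM, of which 1 for Notch1 is not reported here. T, Pecam1 and Kdm5a were named after their values were seen, as were the shares of genes without reads by level. The same holds for Notch2, Adam10, Furin, Notch3 and Bhlhe41 in the genotype where they were not called. Alternatives were RLE scaling, DESeq2 1.42.0, no filter on low counts, the compared libraries alone, a replicate block, each library left out, the mean without day 7 and a pseudocount of 5 CPM in place of 0.5. Replicate numbers were not taken as pairs: the deviations of same-numbered libraries had correlations of -0.189 to 0.315 over 28 pairs of conditions (9224 genes), and 8 exceeded 0.1. Protein sequences were not used here.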

Additional observations from a re-analysis of the deposited data

Results flagged for a closer look

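Hey1 changed differently in the 2 genotypes from day 0 to day 7 with dox. It was higher in both Wt libraries and unread in both Spen-/- libraries at day 7, and the difference between the changes passed the test (edgeR adjusted p = 0.026).

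For Hes1 at day 0 every dox-treated library lay above the untreated ones in Wt cells and below them in Spen-/- cells, and the Wt effect on the log2 scale was 0.13 without treated replicate 1. The share of all genes with such a pattern was not counted. The difference of -2.74 on the log2 scale did not pass the test across all genes (edgeR adjusted p = 0.42). Notch1 was higher at day 7 than at day 0 with dox in both Wt libraries and lower in both Spen-/- libraries. That difference of -2.31 (SE 1.20) did not pass either (edgeR adjusted p = 0.427). It was -4.53 (adjusted p = 0.0503) without Spen-/- day 7 replicate 2 and -1.47 without replicate 1. Groups of 2 libraries are too small for a search for single outlying samples.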

How the results depend on the processing

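RLE scaling and the replicate block gave the same number of called members as the reported fit in all 14 comparisons, and the block moved the count over all genes by more than 1.5 times only for the dox effect (47 against 27 in Wt, 8 against 13 in Spen-/- cells). DESeq2 called 4 members in place of 2 between genotypes at day 7, 2 in place of 1 over the mean of 4 conditions, 2 in place of 0 from day 0 to day 3 in Spen-/- cells, and 1 in place of 0 from day 0 to day 3 in Wt cells, between genotypes at day 0 with dox, for dox in Spen-/- cells and for the genotype difference in the dox effect. Without the filter on low counts 3 members were called between genotypes at day 7 and 3 over the mean of 4 conditions. That setting called 1 in place of 0 between genotypes at day 0 with dox, for dox in Spen-/- cells and for the genotype difference in the dox effect. It also called 1 in place of 0 from day 0 to day 3 in Wt cells, and 0 in place of 1 from day 0 to day 7 in Wt cells. With the compared libraries alone 0 were called between genotypes at day 7, from day 0 to day 7 in Spen-/- cells and for the difference in that change. Over the mean without day 7, 0 were called. Over all genes at day 7 the genotype comparison called 1291, 2883 with DESeq2, 2521 without the filter and 0 with the day 7 libraries alone. The mean of 4 conditions called 891 genes, 2268 with DESeq2 and 2397 without the filter. Between genotypes at day 0 with dox 15 genes were called, 446 with DESeq2 and 385 without the filter. Both settings thus called more genes of any kind in these comparisons. The cause of these shifts was not tested.

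With 1 library left out, the number of called members ranged from 1 to 3 between genotypes at day 7, 0 to 1 over the mean of 4 conditions, 1 to 2 from day 0 to day 7 in Spen-/- cells, 0 to 0 in Wt cells over that interval, and 0 to 1 for the difference in that change. Small log2 differences changed sign. Between genotypes Rbpj ranged from -0.16 to 0.03 at day 0 without dox and from -0.39 to 0.21 with it, Notch1 from -0.83 to 0.17 at day 0 with dox, and Hey1 from -1.94 to 0.95 at day 3. In Spen-/- cells Hes1 ranged from -0.072 to 0.34 from day 0 to day 3 and from -0.22 to 0.44 from day 0 to day 7, and Rbpj from -0.58 to 0.023 from day 0 to day 7. Of 330 alternative values of single members, 283 kept direction and side of the threshold. With a pseudocount of 5 the exact permutation p of Hes5 was 0.0185. Depth limits Hes5, Hey2, Heyl and Nrarp, which had at most 38 reads in a library.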
